A study of Neurospora crassa with 12 samples.

Results

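The 7 genes described here are the branched-chain amino acid biosynthesis genes of the filamentous fungus Neurospora crassa that were picked by locus tag: ilv-2 (NCU03608), ilv-4 (NCU01666), NCU04579, leu-4 (NCU02010), leu-2 (NCU04385), leu-1 (NCU06232) and val-2 (NCU09116). They are 7 of the 9758 genes listed for each library, and all 7 were among the 5035 genes tested, those averaging 10 FPKM or more in some group. FPKM is a number of sequenced fragments divided by transcript length and by library depth. RNA was sequenced from a wild type strain and from a cys-3- strain (Δcys-3 in the labels), which lacks the start of cys-3, exon 1 included, and carries a hygromycin marker in its place. cys-3 is the gene of the bZIP transcription factor that activates sulfur acquisition genes. All cultures were grown from conidia for 24 h at 25 °C in medium with 500 mg/L methionine, washed, and moved for 4 h to medium with either 24 µM sulfate or no sulfur source. The 4 groups, wild type and cys-3- in each medium, held 3 libraries each, every one from its own culture. The cys-3- strain is a single homokaryotic isolate derived from 1 deletion collection mutant, so differences between the strains are differences between 2 isolates.

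Isoleucine and valine are built by a common set of mitochondrial enzymes, and leucine leaves the valine route at its last keto acid through 3 further steps that pass by isopropylmalate. A transamination closes each branch. In yeast the transcription factor Leu3 reads the level of α-isopropylmalate and sets the leucine genes by it, and in N. crassa the bZIP factor CPC-1, the counterpart of yeast Gcn4, raises the genes of many amino acid pathways together when an amino acid runs short. The ilv-2 gene encodes acetohydroxy acid reductoisomerase, an enzyme of both the isoleucine and the valine routes. The leucine steps are carried out by isopropylmalate synthase (leu-4), isopropylmalate isomerase (leu-2), which in yeast is an iron-sulfur enzyme, and isopropylmalate dehydrogenase (leu-1). NCU04579 was placed in the isoleucine-valine pathway by the list itself and has no symbol in RefSeq, and no role is given here for ilv-4. The name val-2 comes from the study's gene list, where the product is given as an aromatic aminotransferase (Aro8) under cysteine and methionine metabolism. Its place in the branched-chain pathway therefore rests on the gene name alone.

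The libraries held 7.33 to 11.2 megareads as implied by the intervals that came with the FPKM values, and replicates correlated with Pearson's r of 0.982 to 0.997 across the genes tested. The labels were checked on sulfur genes. The arylsulfatase gene ars-1 had a mean of 0.250 FPKM in wild type in 24 µM sulfate and 105 FPKM in starved wild type, but 0.121 and 0.236 FPKM in cys-3-. The sulfate permease gene cys-14 went from 4.35 to 356 FPKM in wild type and was at 1.22 and 1.33 FPKM in cys-3-. Both ars-1 and cys-14 overlapped between the media in cys-3- and between the strains in 24 µM sulfate. They therefore check the labels of starved wild type only. The cys-3 transcript itself was at 63.9 and 147 FPKM in wild type and at 77.2 and 72.4 FPKM in cys-3-, in which the part of the gene that was left is still read, so its level does not test the strain label. Of 5 conidial marker genes (con-6, con-8, con-10, eas and fl), none was at 0 in every library of a group. Their summed level was 22.1 to 37.1 FPKM in wild type in 24 µM sulfate, 28.3 to 37.3 FPKM in starved wild type, 44.4 to 66.6 FPKM in cys-3- in 24 µM sulfate and 46.9 to 50.5 FPKM in starved cys-3-. The sums of the cys-3- libraries lay above those of wild type in both media. Of the 2 markers abundant enough to be tested, eas was higher in cys-3- without overlap, 2.47-fold in 24 µM sulfate and 1.61-fold in starvation. The other, fl, was higher in cys-3- without overlap in starvation (1.29-fold) and overlapped between the strains in 24 µM sulfate. Neither marker passed limma between the strains (eas, adjusted p = 0.0813 in 24 µM sulfate and 0.0583 in starvation, and fl, 0.322 and 0.133). The paper, with its own test, lists eas among the genes upregulated in cys-3- in 24 µM sulfate. The part of these markers in the strain differences below was not tested. In bulk RNA, fewer cells of a type and less RNA per cell cannot be told apart.

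All 7 genes were abundant transcripts. Averaged over the 12 libraries, ilv-2 stood at 582 FPKM, above 98.2% of the genes, and leu-2, the lowest, at 46.3 FPKM, above 83.1%. In wild type in 24 µM sulfate the order of the mean levels was ilv-2 (706 ± 86.1 FPKM, SD, n = 3), ilv-4 (229 ± 20.4), leu-1 (185 ± 14.03), NCU04579 (160 ± 21.4), leu-4 (93.4 ± 3.35), leu-2 (63.0 ± 5.52) and val-2 (53.8 ± 7.05). The libraries of leu-1 and NCU04579 overlapped in that group, as did those of leu-2 and val-2, and the other neighbours in the order did not overlap. In starved cys-3- the order differed at its lower end, where val-2 (109 ± 22.9 FPKM) overlapped leu-4 (101 ± 4.97) and leu-2 (34.8 ± 0.333) stood apart below both.

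**Figure D1:**
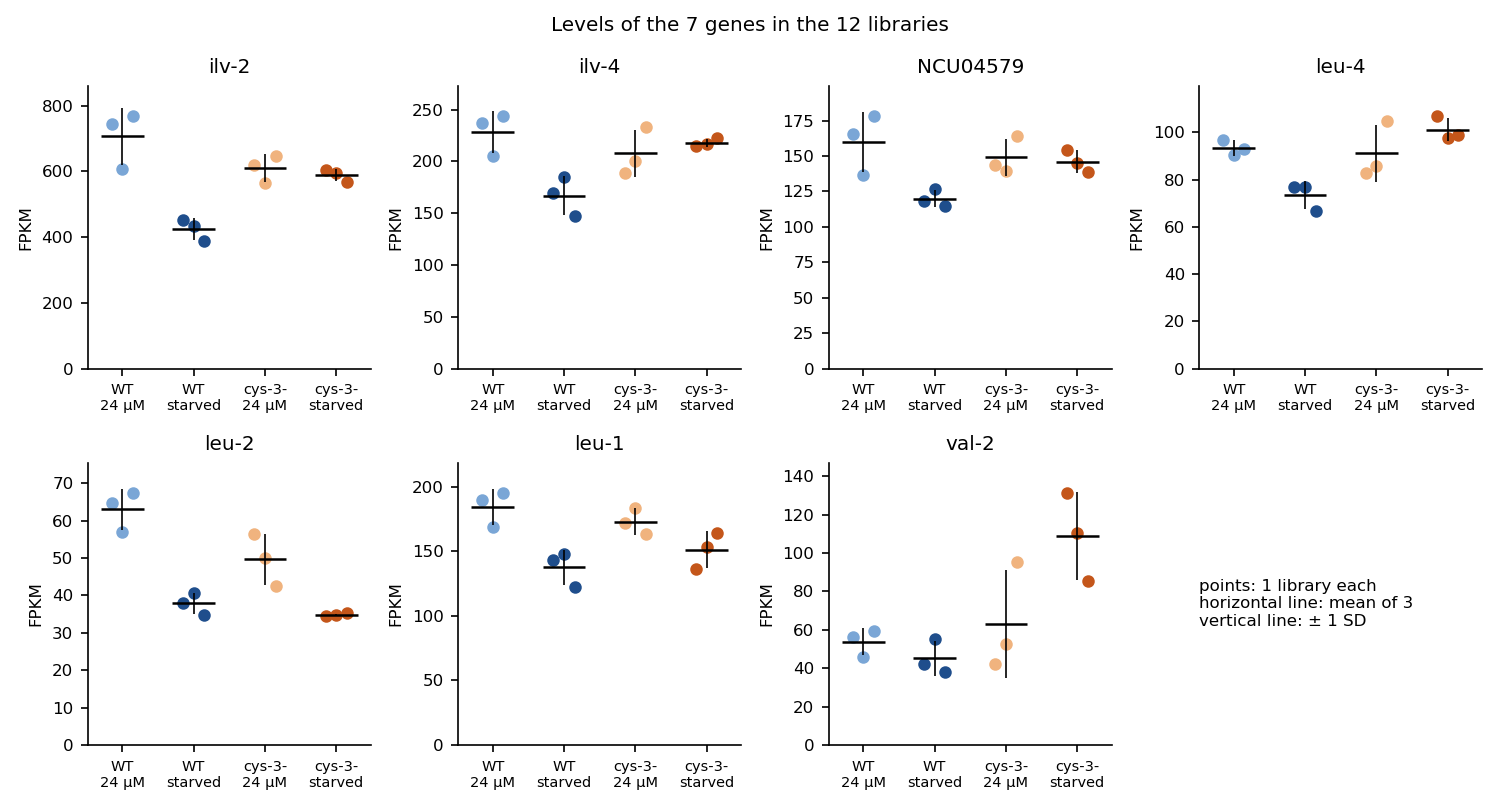
FPKM of each gene (vertical axis, from 0) in the 4 groups (horizontal axis), 1 point per library, with the mean of 3 as a horizontal line and ± 1 SD as a vertical line. For ilv-2, ilv-4, NCU04579 and leu-4 the 3 starved wild type libraries lie below all 9 others. How many of all genes have this pattern was not counted. leu-2 is low in both starved groups, and val-2 is highest in starved cys-3-, between 85.6 and 131 FPKM.

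In wild type, 6 of the 7 genes fell in starvation, by a factor of 1.27 to 1.66, and val-2 had no difference past the threshold. Of all genes tested, 12.0% were lower at an adjusted p under 0.05 in this comparison and 11.1% higher. The median log2 difference of the 7 genes was -0.42, beside -0.04 over all genes tested. None of the 7 was a 2-fold call (adjusted p under 0.05, group means 2-fold or more apart, the larger at 10 FPKM or more), against 3.12% of all genes. In cys-3- the same change of medium moved none of the 7 past the threshold, where only 21 of all 5035 genes passed (0.0993% lower), so a count of 0 is near the background. Between the starved strains, 5 of the 7 were higher in cys-3-, by a factor of 1.22 to 2.41, against 20.7% of all genes tested that were higher. These comparisons share libraries (the starved wild type libraries enter both the first and the last), so they are not independent of each other. All adjusted p-values below are from limma over the 5035 genes. An exact permutation test of 3 libraries against 3 cannot go below p = 0.1. Groups without overlap were common among all genes tested. In wild type starvation all starved libraries were below in 18.1% of all genes and in 6 of the 7. Between the starved strains all cys-3- libraries were above in 28.5% of all genes and below in 26.7%, with 5 of the 7 above. For starvation in cys-3- 16.4% were below, with 1 of the 7. Between the strains in 24 µM sulfate 7.45% were below, with 1 of the 7.

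The gene of acetohydroxy acid reductoisomerase, ilv-2, lies on chromosome V at 1828369 to 1830812 (NC12). In wild type in 24 µM sulfate its levels were 743, 608 and 768 FPKM in replicates 1, 2 and 3, and in starved wild type they were 452, 433 and 387 FPKM. The starved libraries were all below the sulfate libraries, with a mean 1.66-fold lower (log2 difference -0.73, SE 0.10, adjusted p = 0.00016). In cys-3- the levels were 620, 564 and 647 FPKM in 24 µM sulfate and 604, 595 and 568 FPKM in starvation, which overlapped (log2 difference -0.05, 95% interval -0.26 to 0.16, adjusted p = 0.837). Starved cys-3- was thus 1.39-fold above starved wild type without overlap (log2 difference 0.47, SE 0.10, adjusted p = 0.00253). In 24 µM sulfate the cys-3- libraries overlapped those of wild type (log2 difference -0.21, 95% interval -0.41 to 0.00, adjusted p = 0.307). The difference passed without wild type replicate 2, the lowest of its group (log2 -0.31, adjusted p = 0.0361), or with array weights (log2 -0.30, adjusted p = 0.013). The starvation response of ilv-2 differed between the strains by 0.68 on the log2 scale (SE 0.13, adjusted p = 0.00575).

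The intervals deposited around the FPKM values put a limit on ilv-2. The reads they imply stayed between 1928 and 2140 in every library, while FPKM ranged from 387 to 768. Fitting those reads with limma-voom gave ilv-2 log2 differences of -0.12 for starvation in wild type (adjusted p = 0.484), 0.25 between the starved strains (adjusted p = 0.0971) and -0.02 for the difference in response (adjusted p = 0.958). The SD of the log2 ratio of implied reads to FPKM over the libraries was 0.32 for ilv-2, 0.35 for val-2, 0.23 for leu-2 and 0.19 for ilv-4, but 0.01 for leu-4, 0.02 for leu-1 and 0.03 for NCU04579, beside a median of 0.03 over genes with a mean above 10 FPKM. The 4 genes with the large values are the 4 whose loci share bases with a neighbour, as given with each gene, and reads were counted without strand. For these 4 genes the implied reads varied less than the FPKM values, with val-2 at 1046 to 1752 implied reads over 37.9 to 131 FPKM. Their differences on the implied reads are given but are not an independent check of FPKM. For leu-4, leu-1 and NCU04579 the implied reads follow FPKM, so they are no independent check there either. ilv-2 shares 202 bases with NCU03607, which was at 16.4 ± 3.13 FPKM in wild type in 24 µM sulfate and rose 1.74-fold to 28.5 ± 2.57 FPKM in starvation (adjusted p = 0.001), the direction opposite to ilv-2.

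The levels of ilv-4 (chromosome II, 2760963 to 2762745) were 237, 205 and 244 FPKM in wild type in 24 µM sulfate and 169, 185 and 147 FPKM in starved wild type. The groups did not overlap, and the starved mean was 1.37-fold lower (log2 difference -0.45, SE 0.10, adjusted p = 0.00759). In cys-3- the gene was at 189, 201 and 233 FPKM in 24 µM sulfate and at 215, 216 and 223 FPKM in starvation, with no difference past the threshold (log2 0.07, 95% interval -0.15 to 0.29). The 3 starved cys-3- libraries lay close together (a coefficient of variation of 1.89%) and all above starved wild type, by a factor of 1.30 (log2 difference 0.39, SE 0.10, adjusted p = 0.0105). In 24 µM sulfate the strains overlapped (log2 -0.14, 95% interval -0.36 to 0.08). On the implied reads the starvation difference in wild type was -0.18 (adjusted p = 0.137). The locus shares 206 bases with arg-12, the ornithine carbamoyltransferase gene, which reached 280.3 FPKM, and reads from the shared bases cannot be told apart. arg-12 did not pass for starvation in wild type (log2 -0.33, adjusted p = 0.268) and was 2.04-fold higher in starved cys-3- than in starved wild type (adjusted p = 0.00244).

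NCU04579 (chromosome V, 1618145 to 1620428, with no overlapping gene) had 166, 136 and 178 FPKM in wild type in 24 µM sulfate and 118, 127 and 115 FPKM in starved wild type. All starved libraries were below, with a mean 1.34-fold lower (log2 difference -0.41, SE 0.10, adjusted p = 0.0118), and the adjusted p was 0.0519 without wild type 24 µM sulfate replicate 3. In cys-3- it was at 144, 140 and 164 FPKM in 24 µM sulfate and at 154, 145 and 139 FPKM in starvation (log2 difference -0.03, 95% interval -0.24 to 0.19). Starved cys-3- exceeded starved wild type 1.22-fold (log2 0.28, SE 0.10, adjusted p = 0.0407). That call was close to the threshold. It was lost when starved wild type replicate 1 (adjusted p = 0.0807) or 3 (adjusted p = 0.119) was left out. The same held for starved cys-3- replicate 1 (adjusted p = 0.131), 2 (adjusted p = 0.0867) or 3 (adjusted p = 0.0601). It was also lost with median of ratios scaling (adjusted p = 0.0798), no FPKM minimum (adjusted p = 0.0609) or a replicate block (adjusted p = 0.0562). The strains overlapped in 24 µM sulfate (log2 -0.10, 95% interval -0.31 to 0.12).

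Isopropylmalate synthase carries out the first step of the leucine branch. Its gene, leu-4 (chromosome I, 1685685 to 1689164, with no overlapping gene), had 96.9, 90.3 and 92.9 FPKM in wild type in 24 µM sulfate and 76.9, 76.8 and 66.7 FPKM in starved wild type. The drop was 1.27-fold (log2 difference -0.34, SE 0.09, adjusted p = 0.02), with no overlap, and it missed the threshold without wild type 24 µM sulfate replicate 1 (adjusted p = 0.0725) or starved wild type replicate 3 (adjusted p = 0.0836). In cys-3- the levels were 82.8, 85.9 and 105 FPKM in 24 µM sulfate and 107, 97.7 and 98.9 FPKM in starvation (log2 difference 0.15, 95% interval -0.05 to 0.36, adjusted p = 0.41). The starved cys-3- libraries lay above every starved wild type library, 1.38-fold on average (log2 difference 0.46, SE 0.09, adjusted p = 0.00265). On the implied reads this difference was 0.48 (adjusted p = 0.00212). Those reads are computed from the FPKM values and their intervals and follow FPKM for this gene, so this is no second check. In 24 µM sulfate the strains overlapped (log2 -0.04, 95% interval -0.24 to 0.16).

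The isopropylmalate isomerase gene, leu-2 (chromosome IV, 3538104 to 3541737), was low in the starved libraries of both strains. In wild type it had 64.7, 56.8 and 67.5 FPKM in 24 µM sulfate and 38.1, 40.6 and 34.9 FPKM in starvation, a drop of 1.66-fold with no overlap (log2 difference -0.72, SE 0.10, adjusted p = 0.00024). In cys-3- it had 56.3, 50.0 and 42.7 FPKM in 24 µM sulfate and 34.6, 34.7 and 35.2 FPKM in starvation. The starved libraries were again all lower, 1.43-fold on average, but the difference missed the threshold (log2 -0.49, 95% interval -0.71 to -0.28, adjusted p = 0.0545). It passed without cys-3- 24 µM sulfate replicate 3 (log2 -0.59, adjusted p = 0.0219) or without wild type 24 µM sulfate replicate 2 (log2 -0.49, adjusted p = 0.0319). It also passed with array weights (log2 -0.44, adjusted p = 0.0124). The starved strains overlapped (log2 -0.11, 95% interval -0.33 to 0.10, adjusted p = 0.387). In 24 µM sulfate all cys-3- libraries were below those of wild type (log2 -0.34, 95% interval -0.56 to -0.13), which did not pass (adjusted p = 0.225). This strain difference passed without wild type replicate 2 (log2 -0.41, adjusted p = 0.0281) or with array weights (log2 -0.48, adjusted p = 0.00461). On the implied reads that difference was -0.01 and the drop in wild type -0.39 (adjusted p = 0.00374). leu-2 shares 135 bases with NCU04386, which stayed at or below 10.4 FPKM.

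The third enzyme of the branch, isopropylmalate dehydrogenase, is encoded by leu-1 (chromosome III, 1990931 to 1993483, with no overlapping gene). Its levels in wild type were 190, 169 and 195 FPKM in 24 µM sulfate and 143, 148 and 122 FPKM in starvation, 1.34-fold lower without overlap (log2 difference -0.42, SE 0.10, adjusted p = 0.00825). In cys-3- they were 172, 184 and 163 FPKM in 24 µM sulfate and 136, 153 and 165 FPKM in starvation, with 1 starved library above 1 sulfate library (log2 difference -0.19, 95% interval -0.40 to 0.01, adjusted p = 0.317). The starved strains overlapped (log2 0.13, 95% interval -0.07 to 0.34), as did the strains in 24 µM sulfate (log2 -0.09, 95% interval -0.30 to 0.12). The leu-1 and leu-2 genes were the only members lower in wild type starvation that did not pass as higher in starved cys-3-.

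The aminotransferase gene val-2 (chromosome I, 5382640 to 5387000) had the widest spread of the 7. In wild type it was at 56.4, 45.8 and 59.2 FPKM in 24 µM sulfate and at 42.4, 55.3 and 37.9 FPKM in starvation, with overlap (log2 difference -0.26, 95% interval -0.81 to 0.29, adjusted p = 0.51). In cys-3- in 24 µM sulfate the levels were 42.1, 52.5 and 95.2 FPKM. Replicate 3 was above every wild type library of either medium. Beside wild type in 24 µM sulfate, replicate 1 was below all libraries and replicate 2 within their range. In starved cys-3- they were 131, 110 and 85.6 FPKM, all above every starved wild type library. The mean was 2.41-fold that of starved wild type (log2 difference 1.25, SE 0.25, adjusted p = 0.00263), the only 2-fold call among the 7 genes in any comparison, where 3.59% of all genes were 2-fold calls. On the implied reads this difference was 0.64 (adjusted p = 0.00205). Between the media in cys-3- the libraries overlapped and the test was not passed (log2 0.84, 95% interval 0.29 to 1.39, adjusted p = 0.135), but without cys-3- 24 µM sulfate replicate 3 the log2 difference was 1.18 (adjusted p = 0.0273). In 24 µM sulfate the strains did not differ past the threshold (log2 0.15, 95% interval -0.40 to 0.70), and without that library the difference was -0.18. The locus shares 114 bases with NCU09115, which rose from 7.22 ± 1.33 to 13.1 ± 1.74 FPKM in wild type starvation (adjusted p = 0.00282) and was at 8.08 ± 0.975 FPKM in starved cys-3-. RefSeq lists 2 transcripts for val-2, and the values used here are per gene.

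**Figure D2:**
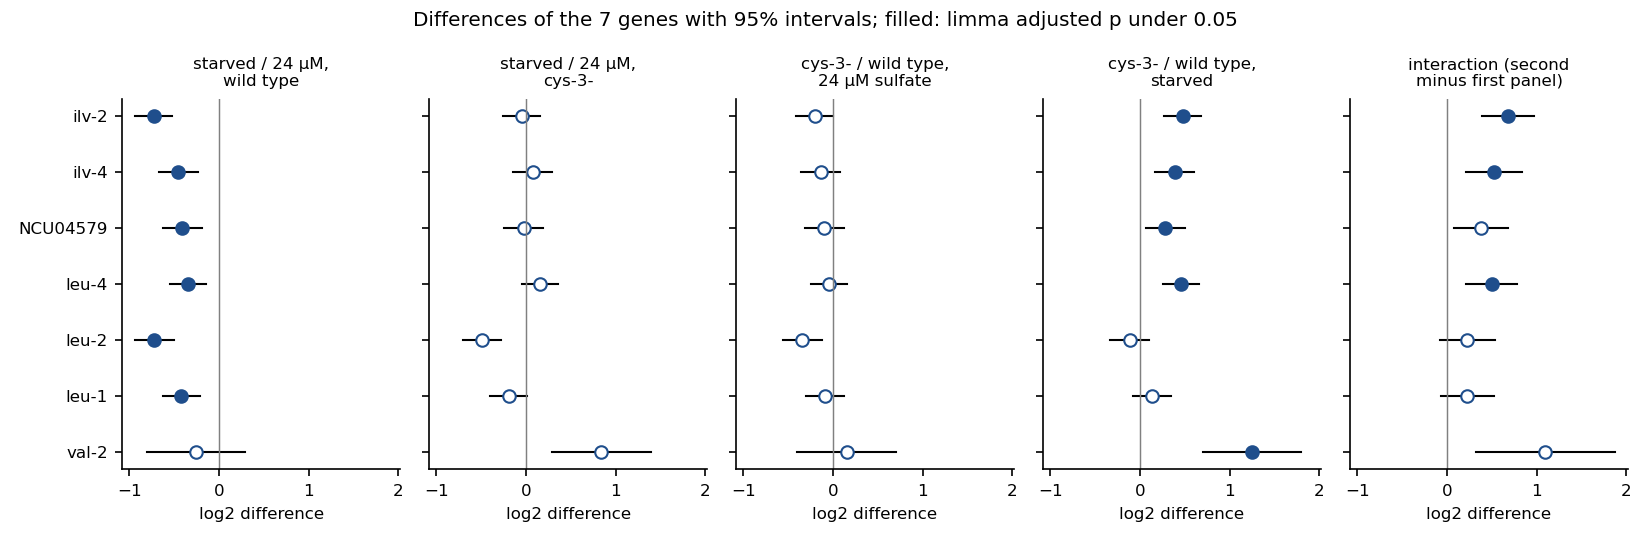
Log2 differences of log2(FPKM + 1) (horizontal axis) with 95% intervals for the 7 genes (vertical axis) in the 4 comparisons and their interaction, filled where the limma adjusted p was under 0.05. In wild type starvation 6 of 7 points are filled and left of 0, in the 2 middle comparisons none is filled, and between the starved strains 5 of 7 are filled and right of 0.

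Counted over the 7 genes, the comparisons without calls were those within cys-3- and between the strains in 24 µM sulfate. For starvation in cys-3-, limma called 0 of 7 lower beside 0.0993% of all genes, and 0 were 2-fold calls beside 0.0199% of all genes. At an unadjusted p under 0.05 there were 2 of 7 (leu-2 and val-2), beside 851 of the 5035 genes tested. For the strains in 24 µM sulfate limma called 0 of 7 lower beside 0.139% of all genes, and 0 were 2-fold calls beside 0.159%. There 1 of 7 had an unadjusted p under 0.05 (leu-2), beside 829 of the 5035. Fitted to the implied reads, limma-voom called 0 of 7 in both, with 8 of all genes called for starvation in cys-3-. With so few calls, and with reads computed from the FPKM values and intervals, this is no independent check. The summed level of the 7 genes put the groups in view together. It was 1490 ± 157 FPKM in wild type in 24 µM sulfate, 1005 ± 82.5 FPKM in starved wild type, 1344 ± 93.0 FPKM in cys-3- in 24 µM sulfate and 1349 ± 34.5 FPKM in starved cys-3-. Without val-2 the sums were 1436 ± 150, 960 ± 75.5, 1281 ± 67.3 and 1240 ± 11.6 FPKM in the same order. Those of cys-3- overlapped between the media. ilv-2 alone made up the largest share of these sums.

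The difference in response, the starvation change in cys-3- minus that in wild type, was tested directly as an interaction. It was positive for all 7 genes, beside 2581 of all 5035 genes tested. The 7 signs come from the same 12 libraries, so they are not independent of each other. The interaction passed for ilv-2 (0.68 on the log2 scale, adjusted p = 0.00575), ilv-4 (0.53, adjusted p = 0.0295) and leu-4 (0.50, adjusted p = 0.026). That is 3 of 7, beside 6.16% of all genes that were higher by this test, and 0 of 7 were 2-fold calls beside 3.18%. It missed the threshold for val-2 (1.10, 95% interval 0.32 to 1.87, adjusted p = 0.0615), NCU04579 (0.38, 95% interval 0.07 to 0.69, adjusted p = 0.0962), leu-2 (0.23, 95% interval -0.08 to 0.53) and leu-1 (0.23, 95% interval -0.07 to 0.52). The call for ilv-2 held without any 1 of the 12 libraries. The ilv-4 call held only without wild type 24 µM sulfate replicate 2, starved wild type replicate 1 or 2, or cys-3- 24 µM sulfate replicate 3 (0.44 to 0.61 over all 12 omissions), and the leu-4 call was lost in 6 of the 12 (0.43 to 0.60): wild type 24 µM sulfate replicate 1, starved wild type replicate 3, cys-3- 24 µM sulfate replicates 1 and 2, and starved cys-3- replicates 1 and 3. With no FPKM minimum the adjusted p of ilv-4 was 0.0543. On the implied reads only leu-4 passed (0.55, adjusted p = 0.0197), a gene whose implied reads follow FPKM, so this is no second check. val-2 passed without cys-3- 24 µM sulfate replicate 3 (1.43, adjusted p = 0.00518) or starved wild type replicate 2 (1.25, adjusted p = 0.0464), and NCU04579 without wild type 24 µM sulfate replicate 2 (0.49, adjusted p = 0.0172).

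Within each wild type group 1 library held the lowest value of all 7 genes. How often these libraries were lowest over all genes was not counted. Wild type 24 µM sulfate replicate 2 had the lowest value of its group for 7 of the 7 genes, and with 7.61 implied megareads it was also the shallowest of that group. Without this library, limma called 710 of all genes between the strains in 24 µM sulfate, beside 12 with it. Starved wild type replicate 3 was the lowest of its group for 7 of 7, at 10.03 implied megareads, which was neither the lowest nor the highest depth there. In cys-3- the genes were split, with replicate 1 of the starved libraries the highest of its group for 4 genes and the lowest for 3. Without starved wild type replicate 3, ilv-2, ilv-4, NCU04579, leu-2 and leu-1 were still lower in starved wild type at an adjusted p under 0.05, and ilv-2, ilv-4, leu-4 and val-2 were still higher in starved cys-3-.

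**Figure D3:**
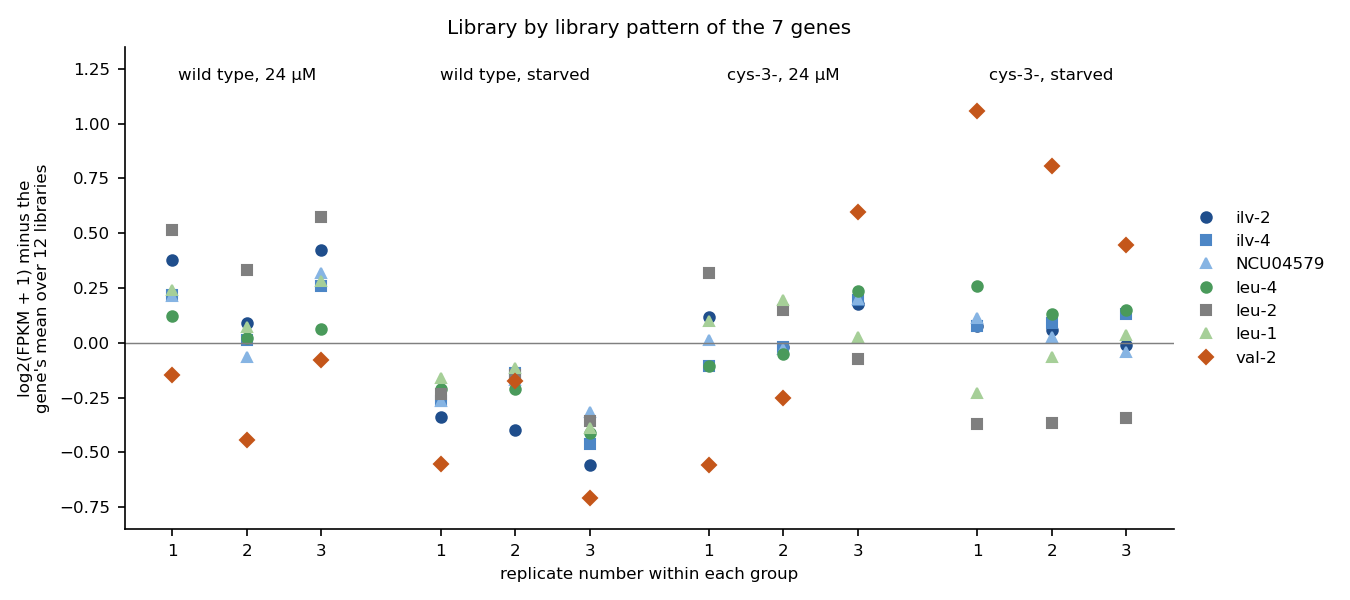
Log2(FPKM + 1) of each gene minus its mean over the 12 libraries (vertical axis), by library (horizontal axis, replicate number within each group), 1 symbol per gene. All 7 genes lie below 0 in the 3 starved wild type libraries, leu-2 lies lowest and val-2 highest in starved cys-3-, and val-2 differs most between replicates in cys-3- in 24 µM sulfate.

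Over the 12 libraries, the 15 pairs of genes without val-2 had Pearson's r of 0.0947 to 0.943 on log2(FPKM + 1), with a median of 0.777, and val-2 had r of -0.41 to 0.82 with the other 6. These coefficients are descriptions over libraries that share 4 group means and their depth. The gene most like ilv-4 of the 5034 others was ilv-6 (r = 0.979), and the gene most like ilv-2 was NCU04579 (r = 0.943). Closest to leu-4 were NCU03118 (r = 0.979), NCU00565 (0.976) and NCU07982 (0.963), and closest to leu-2 were NCU01516 (0.963), NCU09546 (0.953) and NCU06309 (0.951), with no member in either set. leu-1 was most like NCU07972 (0.935), NCU07846 (0.912) and NCU00599 (0.898). The pattern of val-2 was closest to NCU02979 (0.990), acu-3 (0.979), the isocitrate lyase gene of the glyoxylate cycle, and NCU02727 (0.976). acu-3 was at 57.1 ± 7.17, 43.4 ± 4.995, 70.7 ± 27.2 and 110 ± 22.5 FPKM in wild type in 24 µM sulfate, starved wild type, cys-3- in 24 µM sulfate and starved cys-3-, close to val-2 in both its means and its spread, and it was 2.55-fold higher in starved cys-3- than in starved wild type (adjusted p = 0.00081).

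The other genes with an ilv or leu symbol were ilv-5, ilv-6, leu-5 and leu-6, the last 2 encoding leucyl-tRNA synthetases of the mitochondrion and the cytosol. ilv-6 followed its neighbour in pattern, ilv-4, with 116 ± 14.04 FPKM in wild type in 24 µM sulfate, 80.2 ± 12.7 in starved wild type, 105 ± 16.2 in cys-3- in 24 µM sulfate and 109 ± 5.65 in starved cys-3-. It was the only 1 of the 4 that was lower in wild type starvation (log2 difference -0.53, adjusted p = 0.0144), and it was higher in starved cys-3- than in starved wild type (log2 0.45, adjusted p = 0.0191). ilv-5 was also higher in starved cys-3- (30.7 ± 0.855 against 19.3 ± 3.43 FPKM, log2 0.66, adjusted p = 0.00424), and neither passed in the interaction. The synthetase genes passed in no comparison, with leu-6 at a log2 difference of 0.21 (adjusted p = 0.133) and leu-5 at -0.22 (adjusted p = 0.124) between the starved strains.

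The genes with a his, trp, lys or arg symbol were set beside the 7 genes. Most are biosynthetic genes, but the symbols also take in trp-5, a tryptophanyl-tRNA synthetase gene, and arg-13, a mitochondrial carrier gene. Of 24 such genes 23 were tested. In wild type starvation 7 were lower and 1 higher, where 12.0% of all genes were lower and 11.1% higher. Their median log2 difference was -0.24, and the 7 branched-chain genes had a median of -0.42. Between the starved strains 17 were higher in cys-3- and 1 lower, where 20.7% of all genes were higher and 17.1% lower, with a median of 0.37 beside 0.39 for the 7 genes and -0.01 over all genes tested. The largest differences were those of arg-3 (57.3 ± 2.53 FPKM in starved wild type and 173 ± 29.4 in starved cys-3-, 3.02-fold, adjusted p = 0.00013), the gene of the large subunit of the arginine-specific carbamoyl phosphate synthetase, arg-12 (2.04-fold), lys-5 (2.04-fold, adjusted p = 0.00028) and arg-10 (1.87-fold, adjusted p = 0.00039), the argininosuccinate lyase gene. None of the 23 passed within cys-3- or between the strains in 24 µM sulfate, where only 21 and 12 of all 5035 genes passed. In the interaction 11 were higher and 1 lower, where 6.16% of all genes were higher and 7.71% lower. The regulator gene cpc-1 was at 1137 ± 150 FPKM in wild type in 24 µM sulfate, 1036 ± 82.6 in starved wild type, 1297 ± 146 in cys-3- in 24 µM sulfate and 1301 ± 91.5 in starved cys-3-, higher in starved cys-3- than in starved wild type (log2 0.33, adjusted p = 0.0327) and past the test in no other comparison.

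**Figure D4:**
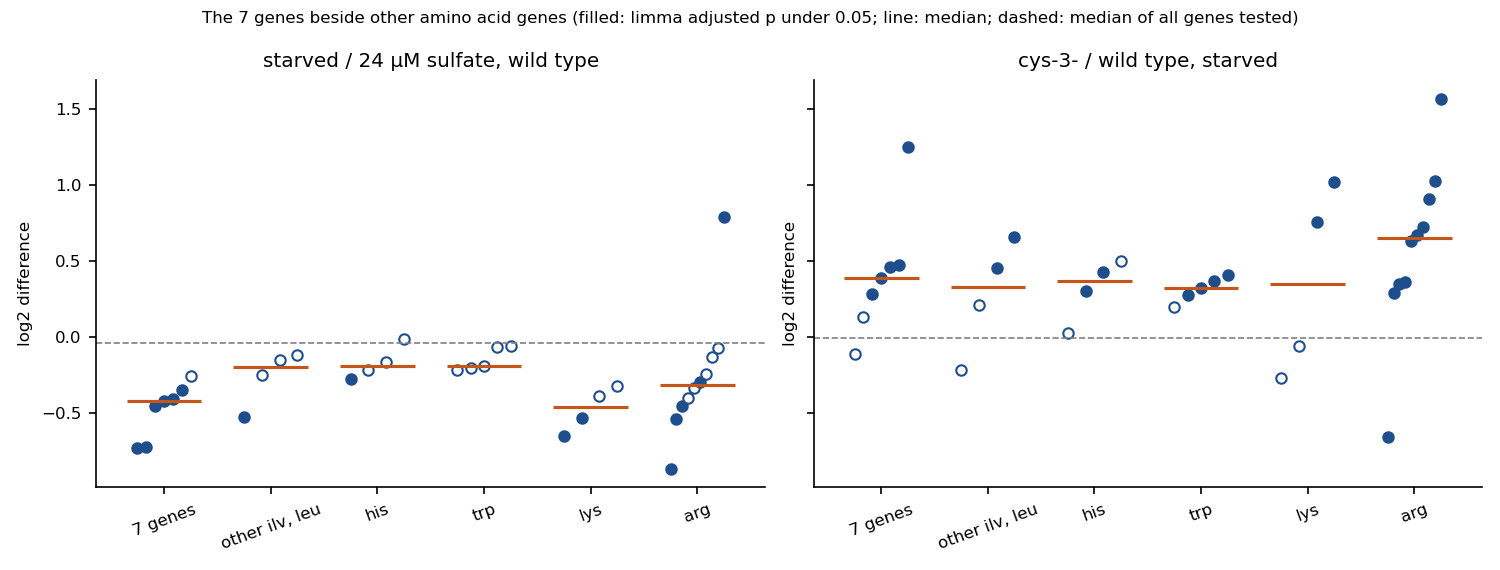
Log2 differences (vertical axis) of the 7 genes, the other ilv and leu genes and the his, trp, lys and arg genes (horizontal axis) for starvation in wild type (left) and between the starved strains (right), 1 point per gene, filled where the limma adjusted p was under 0.05, with the median of each family as a line and that of all genes tested dashed. All family medians are below the dashed line on the left and above it on the right, where arg-3 is the highest point.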

How the data were processed

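Poly(A) RNA of 12 libraries was sequenced as unstranded single-end reads. The authors aligned them to the predicted transcripts of N. crassa OR74A (v12) with HISAT2 (2.1.0 in the submitters' processing notes, where the paper's methods give another version) and computed FPKM per gene with Cufflinks 2.2.1; the deposited values are FPKM with an interval, 1 file per library. Since FPKM are not counts, log2(FPKM + 1) was fitted with limma 3.58.1 in R 4.3.3, with 1 mean per group over all 12 libraries, a mean-variance trend and Benjamini-Hochberg adjustment over the 5035 genes with a group mean of at least 10 FPKM; 4 genes with a failed status were left out. Fold changes on this scale are slightly understated for low genes, and folds in the text are ratios of mean FPKM. The depth is known only as the reads implied by the intervals.

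The members and gene lists were chosen with earlier results of these data known. Members were named by locus tag; other ilv, leu, his, trp, lys and arg genes by RefSeq symbol (9757 of 9758 genes matched, NC12), and of the last 4 families the 4 with the largest difference past the test. The 3 most similar genes were those of highest Pearson's r over the 12 libraries. Degradation genes and promoters were not analysed here. Alternatives covered the pseudocount (0.1), the minimum (1 FPKM or none), 3 scalings, the groups fitted, a replicate block, no trend, array weights, implied reads with limma-voom and each library left out. The fit was tested on simulated data.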

Additional observations from a re-analysis of the deposited data

Results flagged for a closer look

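The starvation responses of 3 genes differed between the strains by a direct test of the interaction with limma. The response in cys-3- exceeded that in wild type by 0.68 on the log2 scale for ilv-2, by 0.53 for ilv-4 and by 0.50 for leu-4. The ilv-2 call was lost on the implied reads (-0.02, adjusted p = 0.958), and the ilv-4 call on the implied reads (0.12, adjusted p = 0.598), in 8 of the 12 omissions of a library and with a replicate block (adjusted p = 0.0568). The leu-4 call was lost in 6 of the 12 omissions and with a replicate block (adjusted p = 0.0533). In each case the 3 starved wild type libraries were the lowest of the 12, and the cys-3- libraries overlapped between the media.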

How the results depend on the processing

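Under the alternatives, limma called 675 genes for starvation in wild type with only the groups compared fitted, 2184 with array weights and 679 to 1376 with 1 library left out, beside 1160. For starvation in cys-3-, 21 genes became 11 with a minimum of 1 FPKM or quantile normalization, 8 with no minimum or implied reads, 64 with only the groups compared, 5 with no variance trend, 213 with array weights and 0 to 50 with 1 library left out. There the 2-fold calls, 1 in the main setting, were 0 with either other minimum, quantile normalization, no variance trend or implied reads, and 0 to 10 with 1 library left out, and the members called were 1 with array weights and 0 to 2 (2-fold, 0 to 1) with 1 library left out. Between the strains in 24 µM sulfate, 12 genes became 7 with no minimum, 6 with only the groups compared, 1458 with array weights and 7 to 710 with 1 library left out, with 14 and 5 to 37 2-fold calls and 2 and 0 to 2 members. In the interaction, 698 genes became 1373 with array weights and 453 to 747 with 1 library left out, and 3 members became 7 (1 of them 2-fold) with array weights, 1 on implied reads and 1 to 4 (2-fold, 0 to 1) with 1 library left out. Directions reversed on implied reads for ilv-4 (-0.06) and NCU04579 (0.02) in cys-3- starvation, ilv-2 (0.27) and ilv-4 (0.16) between the strains in 24 µM sulfate, leu-2 between the starved strains (0.05) and ilv-2 in the interaction (-0.02), with array weights for leu-4 in 24 µM sulfate (0.01), and with 1 library left out for NCU04579 in cys-3- starvation (-0.07 to 0.04), leu-4 (-0.14 to 0.02) and val-2 (-0.18 to 0.40) in 24 µM sulfate. None of these differences had passed the test except ilv-2 in the interaction, and the cause was not tested. Upper quartile and median of ratios scaling left the median of all genes within 0.1 of 0 on the log2 scale.

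Replicate numbers were not used as pairs. Same-numbered libraries deviated from their group means with r of -0.51 to 0.45, and not every library correlated best with its own number. Between the strains in 24 µM sulfate r was 0.08 to 0.45 for equal numbers and -0.44 to 0.33 for unequal ones. With 3 libraries per group these values cannot decide whether equal numbers mark paired cultures. With a replicate block the interaction was called for 1 member, 4 members passed between the starved strains, and in cys-3- starvation 3 genes and 0 2-fold calls were left. Implied depth of 7.33 to 11.2 megareads gave every member at least 876 implied reads in each library.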
